A study of Mus musculus with 4 samples.

Results

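The canonical Wnt pathway was examined in mouse 2-cell embryos through 10 genes: the transcription factor genes Tcf7, Tcf7l1, Tcf7l2 and Lef1, the coactivator gene Ctnnb1, the destruction complex genes Apc, Axin1, Axin2 and Gsk3b, and the coreceptor gene Lrp6. The 10 were picked by name from the 53715 genes of the deposited count table, and the pathway was chosen because Tcf7 had already been seen to differ between the groups. The difference between knockdown and control is therefore given for them as a description, and where they stand in the fit over all genes is stated without support drawn from it. Zygotes were injected with a control small interfering RNA (siNC, 2 libraries, here control) or with an siRNA against SPENH0335 (2 libraries, here knockdown), each at 20 μM. The title of the series is about RNA transcribed from enhancers, and SPENH0335 is read here as the name of one such RNA. All embryos were of a C57BL/DBA2 background, were cultured in KSOM medium and were taken whole at the 2-cell stage for sequencing of poly(A) RNA from pre-amplified cDNA. The sources used here do not give the number of embryos in a library, whether the libraries came from separate collections, or the position of SPENH0335. The table holds no row named for SPENH0335, so the depth of the knockdown was not measured.

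In the canonical pathway a secreted Wnt protein binds a Frizzled receptor together with the coreceptor LRP6. Without Wnt, a destruction complex built on the scaffolds APC and Axin holds β-catenin, the product of Ctnnb1, while casein kinase 1 and GSK3β mark it for degradation. When the receptor is engaged the complex is inhibited, β-catenin builds up, and it enters the nucleus to act with the DNA-binding TCF/LEF factors, which otherwise recruit corepressors. Axin2, Lef1 and Tcf7 are themselves classical targets of the pathway in many tissues. In the earliest embryo much of the RNA of such genes is inherited from the egg, and counts of total poly(A) RNA do not separate that part from new transcripts.

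The 4 TCF/LEF factors share a high-mobility-group (HMG) box that binds DNA, and their coding sequences are most alike there. The following 90 bases are the ungapped coding window in which most positions were the same in all 4 genes, read 5′ to 3′ from the GENCODE M21 transcripts, with the 65 shared positions in capitals. They are shown because the values below set these 4 genes side by side, and reads that fitted more than 1 of them would blur the comparison.
Tcf7: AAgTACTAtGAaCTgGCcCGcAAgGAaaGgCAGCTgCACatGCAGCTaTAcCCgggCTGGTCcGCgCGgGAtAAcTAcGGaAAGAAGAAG
Tcf7l1: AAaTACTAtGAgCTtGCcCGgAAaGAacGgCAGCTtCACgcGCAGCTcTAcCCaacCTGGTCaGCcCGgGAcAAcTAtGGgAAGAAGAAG
Tcf7l2: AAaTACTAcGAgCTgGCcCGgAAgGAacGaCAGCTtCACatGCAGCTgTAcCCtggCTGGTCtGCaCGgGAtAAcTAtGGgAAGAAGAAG
Lef1: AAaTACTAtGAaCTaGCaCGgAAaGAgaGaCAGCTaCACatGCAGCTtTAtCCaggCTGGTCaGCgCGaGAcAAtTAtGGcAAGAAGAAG
Between 72 and 77 of the 90 bases were the same in any pair, but the longest unbroken coding run shared by any pair was 23 bases. It was aactatgggaagaagaagaagag between Tcf7l1 and Tcf7l2 and aagaagaagaagaggaagagaga between Tcf7l1 and Lef1. No 50-base window of the longest protein-coding transcript of Tcf7, Tcf7l1 or Tcf7l2 was found in a transcript of any other gene. For Lef1, 33.8% of such windows lie in Gm43352, an antisense gene with 2 to 21 counts per library against 20551 to 25836 for Lef1. For Ctnnb1, 18.6% lie in Ulk4, a protein-coding gene on the opposite strand at 6 to 6.91 CPM, the count scaled to library size. The sources used here do not give the strand setting of the counting, so reads from such partners cannot be told apart from reads of the member.

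Libraries held 78865491 to 99011109 counts. All levels are CPM after TMM scaling, which corrects library size for composition, and each mean is given ± SD over the 2 libraries of a group. All 10 markers of the 2-cell embryo were present in every library, led by the oocyte gene Oog3 at 3224 to 3801 CPM and the maternal factor gene Dppa3 at 1821 to 1998 CPM. Knockdown replicate 2 stood higher than replicate 1 for 60.7% of the 8185 genes averaging 10 CPM or more and for 7 of the 10 members. The median absolute log2 difference between replicates over those genes was 0.26 in knockdown and 0.13 in control.

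Tcf7 encodes TCF-1, best known from T lymphocyte development, and lies on chromosome 11 (52252371 to 52283014, minus strand, GRCm38). It was at 43.3 and 47.4 CPM in the control libraries and at 22.5 and 20.3 CPM in the knockdown libraries. Both knockdown libraries lay below both controls, and the gap between the groups was wider than that within either. The group means were 45.3 ± 2.94 and 21.4 ± 1.56 CPM, a knockdown level 47.1% of control and a log2 fold change of -1.09 (SE 0.17, 95% interval -1.51 to -0.66). Among those 8185 genes, 11, Tcf7 included, had a log2 fold change at or below this value. In RNA from whole embryos, fewer cells that express a gene and less of its RNA per cell cannot be told apart.

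The annotated gene model bears on what these counts of Tcf7 represent. Both GENCODE M21 transcripts of Tcf7 start their coding sequence of 909 bases downstream of the part that encodes the β-catenin-binding end of full-length TCF-1, as short forms of the protein do. RefSeq's model of the same assembly runs from 52246527 to 52283383, which adds 369 bases at the 5′ end and 5844 at the 3′ end. The RefSeq sequence just before the GENCODE start, chr11:52283015-52283179 on the minus strand, holds an ATG (in capitals) that opens 55 codons without a stop and runs up to the GENCODE start.
Tcf7 upstream open run: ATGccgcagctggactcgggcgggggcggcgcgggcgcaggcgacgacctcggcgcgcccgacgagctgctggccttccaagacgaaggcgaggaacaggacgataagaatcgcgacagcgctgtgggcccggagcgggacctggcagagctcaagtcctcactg
It is shown because the GENCODE transcripts leave it out and the coding sequence of a long form could begin there. Which annotation was used for counting is not stated in these sources. The rows carry versioned Ensembl IDs, as GENCODE does and RefSeq does not, and 51464 of the 53715 match GENCODE M21 with the same version. The release itself is not given. If its model of Tcf7 was that of GENCODE M21, reads from this stretch did not enter the counts of Tcf7, and long and short forms cannot be told apart in a count per gene.

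The other TCF/LEF genes did not share the pattern of Tcf7. Lef1, on chromosome 3 (131110471 to 131224356), encodes the founding LEF factor and had the highest counts of the family. Its level was 259.8 and 256 CPM in control and 255 and 275 CPM in knockdown, so the groups overlapped. The log2 fold change was 0.04 (SE 0.10, 95% interval -0.21 to 0.29). Tcf7l2, on chromosome 19 (55741820 to 55933654), which encodes TCF-4, the main factor of intestinal crypts, was at 22.6 and 23.2 CPM in control and 21.3 and 22.6 CPM in knockdown. These values overlapped too, with a log2 fold change of -0.06 (SE 0.18, 95% interval -0.52 to 0.40).

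Tcf7l1, on chromosome 6 (72626378 to 72789254), encodes TCF-3, known in embryonic stem cells as a repressor, and was the scarcest member. The control libraries held 129 and 157 counts of it and the knockdown libraries 406 and 154, or 1.45, 1.95, 4.21 and 1.64 CPM. Knockdown replicate 1 alone was high, and knockdown replicate 2 lay between the controls. The log2 fold change of 0.78 (SE 0.59, 95% interval -0.69 to 2.25) became -0.05 without knockdown replicate 1. In the plot of members by library, Tcf7 is the member whose groups lie clearly apart.

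**Figure D1:**
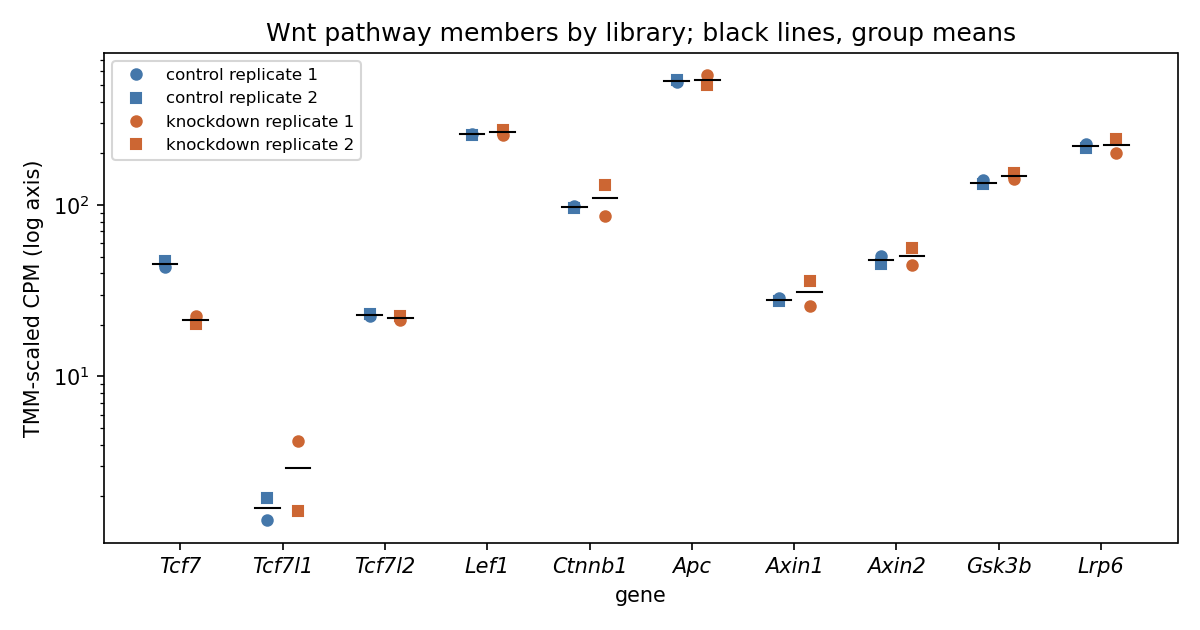
TMM-scaled CPM (log axis) of the 10 members in each library, with circles for replicate 1, squares for replicate 2, blue for control, orange for knockdown and black lines for group means. Tcf7 is at 43.3 and 47.4 CPM in control and 22.5 and 20.3 CPM in knockdown, while Tcf7l1 has a single high library at 4.21 CPM.

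To compare levels between genes, CPM was divided by the length of each gene's annotated exons in kilobases (kb). On this scale Lef1 was at 29.1 to 31.3 CPM per kb over the 4 libraries and Tcf7 at 16.5 and 18.1 in control and 8.56 and 7.72 in knockdown. Tcf7l2 was at 2.43 to 2.65 and Tcf7l1 at 0.371 to 1.07 CPM per kb. Lef1 thus made up 60.4 and 57.9% of the family's summed CPM per kb in control and 70.7 and 74.5% in knockdown. The share of Tcf7 was 33.6 and 35.9% in control against 20.8 and 18.4% in knockdown, and Tcf7l2 stayed between 5.25 and 6.13%. Within a library, where scaling cancels, Lef1 over Tcf7 was 1.79 and 1.61 in control and 3.4 and 4.06 in knockdown.

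These shares depend on the length used, because the exon union of Lef1 also counts its retained introns. The length of Tcf7 is that of the GENCODE model, which RefSeq's exceeds by 5844 bases at the 3′ end. If counting used the GENCODE model, reads from that stretch are missing from the level of Tcf7. Divided by the longest annotated transcript, Lef1 over Tcf7 was 4.06 and 3.65 in control and 7.69 and 9.18 in knockdown, and Lef1 held 72.8 to 83.5% of the family. On either length, Lef1 was the highest family member in every library. A gene's length is the same in all libraries, so the rise of Lef1 over Tcf7 in knockdown cannot depend on it. That rise restates the lower level of Tcf7, for which the pathway was chosen, since the log2 fold change of Lef1 was 0.04. The summed CPM of the 4 genes was 327 and 328 in control and 303 and 319.6 in knockdown. Without Tcf7 the sum was 284 and 281 in control and 281 and 299 in knockdown, which overlap.

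**Figure D2:**
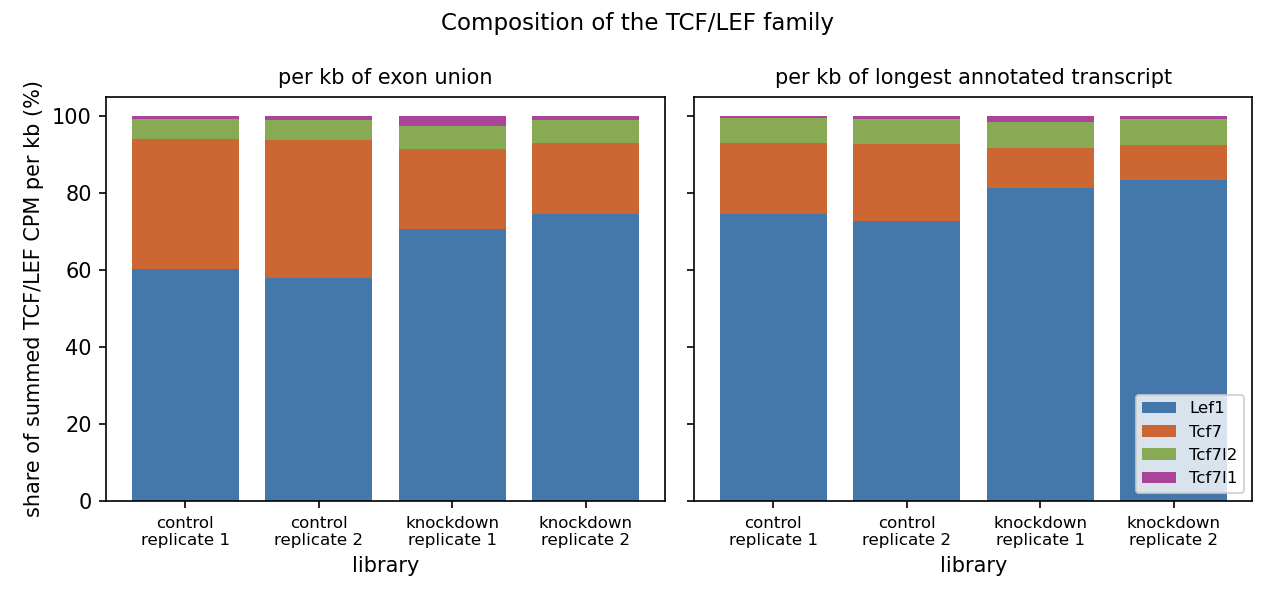
Share (%) of each TCF/LEF gene in the family's summed CPM per kb in each library, with the exon union as length on the left and the longest annotated transcript on the right. Tcf7 makes up 33.6 and 35.9% in control and 20.8 and 18.4% in knockdown on the left.

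Ctnnb1, on chromosome 9 (120929216 to 120960507), encodes β-catenin, which also links cadherins to actin at cell contacts. It was at 98.4 and 96 CPM in control and at 86.1 and 131 CPM in knockdown. The knockdown libraries lay on opposite sides of the controls, 0.61 apart on the log2 scale, against 0.04 between the controls. The log2 fold change of 0.16 (SE 0.21, 95% interval -0.38 to 0.69) was -0.17 without knockdown replicate 2 and 0.43 without knockdown replicate 1.

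Apc, on chromosome 18 (34220924 to 34322552), encodes the large scaffold that is lost in most colorectal tumours and had the highest counts of all 10 members. It was at 524 and 534 CPM in control and at 569.9 and 501 CPM in knockdown, again on both sides of the controls. Its log2 fold change was 0.02 (SE 0.10, 95% interval -0.23 to 0.27), with -0.08 without knockdown replicate 1 and 0.11 without knockdown replicate 2.

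Axin1, on chromosome 17 (26138688 to 26195811), encodes the scaffold whose amount limits the complex in many cells. Its level was 28.5 and 27.4 CPM in control and 25.7 and 36.2 CPM in knockdown. Axin2, on chromosome 11 (108920349 to 108950783), its paralog and the usual readout of pathway activity, was at 50.4 and 45.4 CPM in control and 44.4 and 56.3 CPM in knockdown. For both genes the knockdown libraries enclosed the controls. The log2 fold changes were 0.15 (SE 0.22) for Axin1 and 0.07 (SE 0.18, 95% interval -0.38 to 0.52) for Axin2. Without knockdown replicate 2 they were -0.12 and -0.10, and without knockdown replicate 1 they were 0.38 and 0.23. Axin2 over Axin1 per kb ran from 1.08 to 1.23 over the libraries, lowest in knockdown replicate 2.

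Gsk3b, on chromosome 16 (38089001 to 38246084), encodes the kinase GSK3β. It was at 139 and 132 CPM in control and at 141 and 153 CPM in knockdown. Both knockdown libraries lay above both controls, but the gap between the nearest libraries was smaller than that between the controls. The log2 fold change was 0.12 (SE 0.11, 95% interval -0.16 to 0.40), and without any 1 library it stayed between 0.07 and 0.18. Per kb, Gsk3b exceeded its paralog Gsk3a by 2.99 to 3.5 times.

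Lrp6, on chromosome 6 (134446476 to 134566965), encodes the coreceptor that Wnt engages beside Frizzled. Its level was 227 and 215 CPM in control and 202 and 243 CPM in knockdown. The knockdown libraries again enclosed the controls, with a log2 fold change of 0.01 (SE 0.13, 95% interval -0.31 to 0.33). It was 0.13 without knockdown replicate 1, -0.12 without knockdown replicate 2 and -0.03 without control replicate 2. Its paralog Lrp5 was far lower, and Lrp6 over Lrp5 per kb ran from 11.7 to 17.4.

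Of the 10 members, 2 had groups that did not overlap, Tcf7 lower and Gsk3b higher, against 32.7% of the 25565 genes tested. In the edgeR quasi-likelihood test over those genes 0 were called at an adjusted p under 0.05 (0% of genes), members included, with 984 at an unadjusted p under 0.05. Tcf7 was the 1 member at that unadjusted threshold, on the lower side, where 2.29% of all genes tested lay. DESeq2, run without the low-count filter, called 53 of 36863 genes, and Tcf7 was the only member among them. Since Tcf7 was chosen for this contrast, neither outcome is evidence about it. The 95% interval lay within 2-fold in either direction for 8 of the 10 members, the exceptions being Tcf7 and the scarce Tcf7l1, and for 87.8% of the genes averaging 10 CPM or more.

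**Figure D3:**
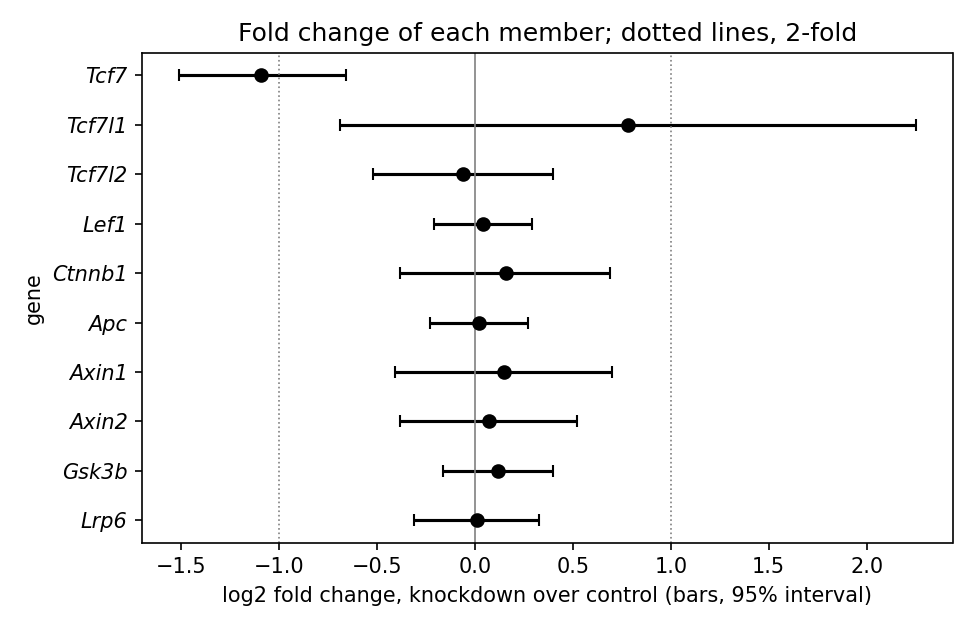
Log2 fold change of each member, knockdown over control, with its 95% interval from the edgeR fit and dotted lines at 2-fold. Tcf7, which was chosen for this difference, lies at -1.09 with an interval of -1.51 to -0.66, and the other 9 intervals include 0.

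In order of mean CPM per kb of exon over the 4 libraries, Apc came first at 33 ± 1.79 (SD over libraries), then Lef1 at 29.8, Ctnnb1 at 19.8, Lrp6 at 16.2, Gsk3b at 14.4, Tcf7 at 12.7, Axin2 at 8.92, Axin1 at 7.69, Tcf7l2 at 2.56 and Tcf7l1 at 0.59. Against all genes tested these levels lay between the 39.6th percentile for Tcf7l1 and the 93.4th for Apc. The library ranges of Apc and Lef1 overlapped, as did those of neighbours from Ctnnb1 to Axin1. Ctnnb1 was below Lef1 in every library, and Tcf7l2 and Tcf7l1 each lay below the gene before them in every library. With the longest annotated transcript as length, Lef1 and Apc changed places and no longer overlapped, and the other 8 kept their place. The place of Tcf7 rests on its shorter GENCODE model in both orders.

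The same fit was then read for 127 other Wnt pathway genes in 8 lists, of which 117 passed the low-count filter. At an adjusted p under 0.05, 0 were called by edgeR or DESeq2. At an unadjusted p under 0.05, 1 was higher and 1 lower, against 3.85% of all genes tested. The 2 were the Wnt ligand genes Wnt10a, with 0 and 0 counts in control and 12 and 21 in knockdown, and Wnt2b, with 15 and 12 counts in control and 0 and 0 in knockdown. The empty group was set at a floor of 3 counts, which covers counting error only, and the other group at its observed counts. On that footing Wnt10a was 9.76-fold higher and Wnt2b 10.1-fold lower, which is not a lower bound on the difference. Empty libraries also occurred within a group. Wnt1 had 33 and 0 counts in knockdown and the target gene Cd44 0 and 91 in control, both chosen after their values were seen. Without knockdown replicate 1 the unadjusted count was 24 of 120, with 13.1% of all genes, and without knockdown replicate 2 it was 8 of 119, with 8.02% of all genes. Without control replicate 2 it was 0.

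Of the 117, the groups did not overlap for 16 higher and 19 lower, against 15.6 and 17.1% of all genes. The median log2 fold change of the 117 was -0.06, against -0.00 for all genes tested. The 51 pathway genes averaging 10 CPM or more had log2 fold changes from -0.33 for Ccnd1, a cyclin gene, to 0.53 for Tle1, both named for being the extremes. Their median was 0.03, as for all genes at that level. Tcf7, at -1.09, lay outside this range, as the plot of pathway fold changes shows. Since the pathway was chosen for this difference of Tcf7, that place is a description and not evidence.

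**Figure D4:**
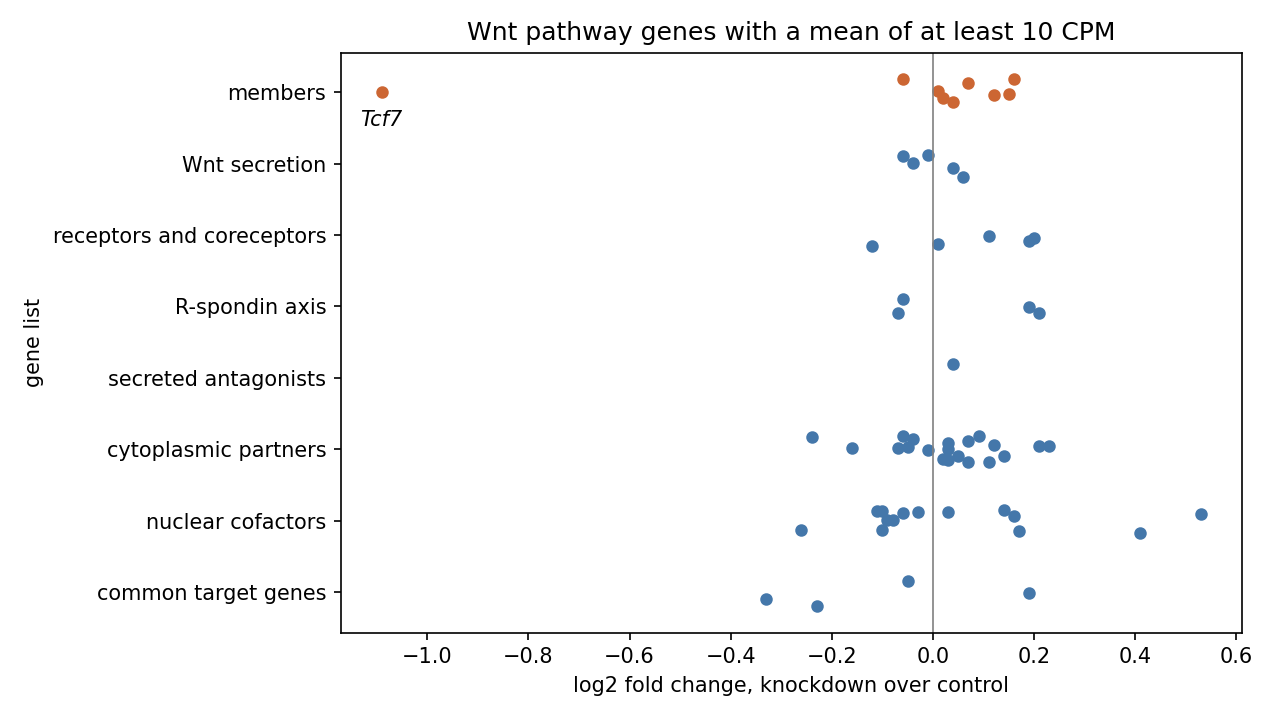
Log2 fold change, knockdown over control, of 9 members (orange) and of the other Wnt pathway genes (blue) that average 10 CPM or more, by list, with points spread vertically for legibility. Blue points lie between -0.33 and 0.53, and Tcf7, which was chosen for this difference, lies at -1.09.

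The 19 Wnt ligands were scarce. None had a mean of 10 CPM, and Wnt6 had no count in any library. Wnt3, a ligand needed for gastrulation, was the highest at 3.87 and 7.16 CPM in control and 3.62 and 0.181 CPM in knockdown, followed by Wnt16 at 1.87 to 2.9 CPM and Wnt5a, a mainly non-canonical ligand, at 0.713 to 2.81 CPM. Of the 17 ligands tested, 5 had a fold change above 0 and 12 below, and their median was -0.42. Among all genes tested, 12711 were above 0 and 12854 below. The ligands summed to 14.8 and 21.3 CPM in control and 14.2 and 8.4 CPM in knockdown, lowest in knockdown replicate 2. The low value of Wnt3 and of Wnt5a was in knockdown replicate 2 alone. Genes for Wnt secretion were abundant by comparison, with the retromer subunit genes Vps26a at 516 to 589 CPM, Vps35 at 221 to 244 CPM and Vps29 at 75.8 to 97.8 CPM, and all 6 had overlapping groups.

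Receptor transcripts were led by Ryk, an atypical Wnt receptor, at 153 to 163 CPM. Fzd3 was at 64.6 and 74.5 CPM in control and 77.9 and 81 CPM in knockdown, without overlap. Its log2 fold change was 0.19 (SE 0.14, 95% interval -0.15 to 0.54). Fzd4 ranged from 18.2 CPM in control replicate 1 to 33.6 CPM in knockdown replicate 1. In the R-spondin axis, which raises Wnt receptor levels at the membrane, Rspo2, an R-spondin made by oocytes, was at 409 and 376 CPM in control and 375 and 373 CPM in knockdown. The log2 fold change of Rspo2 was -0.07 (SE 0.10, 95% interval -0.31 to 0.17). Znrf3, a ligase that removes Frizzled, was at 19.7 to 26.4 CPM and Lgr4, an R-spondin receptor, at 19 to 22 CPM.

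Secreted and membrane antagonists were low, with Kremen1 at 12.2 to 15.5 CPM, Sfrp1 at 2.26 to 8.28 CPM and Dkk3 at 1.76 to 3.35 CPM. The list summed to 36.3 and 36.1 CPM in control and 30.9 and 26.8 CPM in knockdown, lowest in knockdown replicate 2. Of the 13 tested, 3 had a fold change above 0 and 10 below, the median was -0.42, and only Kremen1 averaged 10 CPM or more. In contrast, all 29 cytoplasmic partners were tested and 20 reached that level, with 15 above 0, 14 below and a median of 0.02. The ubiquitin ligase genes Cul1 and Skp1a were at 2061 to 2144 and 873 to 985 CPM, and Csnk1a1, the kinase that primes β-catenin, was at 362 to 432 CPM. Tnks, the tankyrase that turns over Axin, was at 237 and 239 CPM in control and 274 and 284 CPM in knockdown. Its log2 fold change was 0.23 (SE 0.10, 95% interval -0.01 to 0.47). Rnf146, the ligase that acts after tankyrase, was at 167 and 172 against 195 and 195 CPM, with a log2 fold change of 0.21 (SE 0.10). Tnks and Rnf146 were singled out after their values were seen, and neither passed the test.

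For the 21 nuclear cofactors tested, 7 fold changes were above 0 and 14 below, and the median was -0.09. Crebbp, a coactivator acetyltransferase, was at 463 and 449.8 CPM in control and 491 and 528 CPM in knockdown, Tbl1xr1 at 368 to 446 CPM and Chd8 at 118 to 138 CPM. Tle1, a corepressor of TCF/LEF factors and also chosen after its value was seen, was at 14.6 and 12.2 CPM in control and 24.4 and 14.2 CPM in knockdown, so the groups overlapped. For the 14 common target genes tested, 4 fold changes were above 0 and 10 below, and the median was -0.22. Only 4 of these genes averaged 10 CPM or more. The target list summed to 153 and 167 CPM in control and 156 and 140.2 CPM in knockdown, lowest in knockdown replicate 2. Id2 was at 55.3 and 62.4 CPM in control and 58.9 and 41.2 CPM in knockdown, Nkd1 at 37 to 42.3 CPM and Znrf3 as above. Cdx1 and Mmp7 had no count in any library.

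Genes near Tcf7 were listed to show how the surrounding region behaved, since the position of SPENH0335 is not known here. Within 250 kb of the start of Tcf7 there were 6 other protein-coding genes. Skp1a, 51 kb away from start to start (52231995 to 52246858), had a log2 fold change of -0.07 (SE 0.09). Its far end overlaps the RefSeq model of Tcf7, which reaches to 52246527, but not the shorter GENCODE model. Vdac1, a mitochondrial channel gene 77.8 kb away (52360860 to 52389397), was at 51.4 and 51.8 CPM in control and 54.5 and 49.1 CPM in knockdown. The gene 9530068E07Rik, 113 kb away, was at 103 and 93.2 against 77.7 and 99.9 CPM, and Ppp2ca, a phosphatase gene 184 kb away, at 62.6 and 62.6 against 65.9 and 69.6 CPM. The olfactory receptor genes Olfr1373 and Olfr1371 had 0 counts in every library apart from 24 for Olfr1371 in knockdown replicate 1. The 95% intervals of the 4 neighbours tested all included 0.

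**Figure D5:**
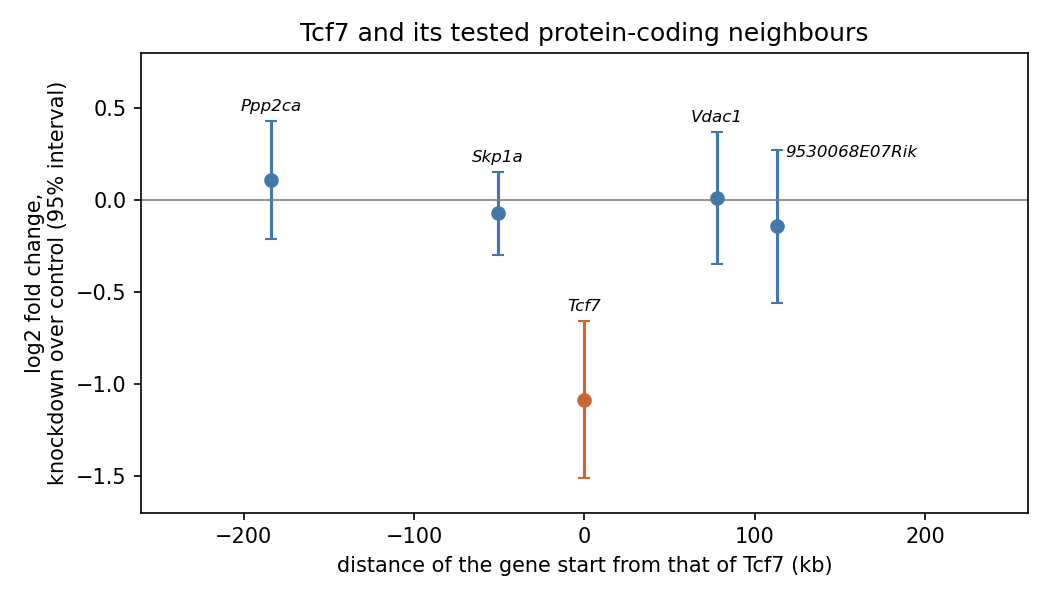
Log2 fold change, knockdown over control, with its 95% interval, of Tcf7 (orange) and of the 4 tested protein-coding genes that start within 250 kb of it (blue), against the distance of their starts from that of Tcf7 in kb. Tcf7 lies at -1.09 and the 4 neighbours between -0.14 and 0.11.

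The 5 genes most like Tcf7, by the distance in centred log2 CPM over the 4 libraries among 8176 genes averaging 10 CPM or more, were Zfp808, Cyp26a1, Kank1, Mkks and Nfyb. Zfp808, a zinc finger gene, was the nearest at a distance of 0.2, with 19.9 and 25.9 CPM in control and 10.8 and 9.4 CPM in knockdown. Cyp26a1, which encodes a retinoic acid hydroxylase, was at 16 and 13.1 against 7.25 and 6.78 CPM. Nfyb, a subunit gene of the CCAAT-binding factor NF-Y, was at 26.2 and 25.7 against 17.1 and 14.2 CPM. With 4 libraries this likeness amounts to being lower in both knockdown libraries by a like amount.

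Promoter windows were searched because TCF/LEF factors bind a short motif at target genes. The RefSeq table (GRCm38.p6) held windows for 7 of the members, Tcf7, Tcf7l1, Tcf7l2, Lef1, Ctnnb1, Axin2 and Gsk3b. The motif CTTTGAT, or ATCAAAG on the other strand, was in 0 of their 13 windows of 250 bases before a start and in 3.21% of all 32851 such windows. A motif this rare is often absent from so few windows, so its absence says little. The members' windows held 40.8 to 76% G and C, against a median of 52.4% over all windows, and the sets were not matched for this. Some windows of Lef1, and those of Ctnnb1, overlap one another. Both windows of Tcf7, 52282596 to 52282845 and 52283015 to 52283264, lie inside its RefSeq model, which begins at 52283383 on the minus strand. The search therefore did not cover the bases before that model of Tcf7. Binding sites further away or with other letters are not covered by this search.

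The stage markers and markers of other cells were read in the same libraries, and those named beyond the 2 highest of a list were chosen after their values were seen. None passed an adjusted p under 0.05 in the edgeR test. Of the 10 markers of the 2-cell embryo, 4 were at an unadjusted p under 0.05, against 3.85% of all genes tested. Zscan4c, Zscan4d and Zscan4f, near-identical genes of the 2-cell stage whose reads may be split between them, had log2 fold changes of 0.47, 0.36 and 0.56. Gdf9, an oocyte growth factor gene, was at 387 and 369 CPM in control and 273 and 299 CPM in knockdown, a fold change of -0.40 on the log2 scale. Of the 10, groups did not overlap for 4 higher and 2 lower, against 15.6 and 17.1% of all genes tested. The groups of Dppa3, Zp3, Oog3 and Obox1 overlapped, with log2 fold changes of 0.03, -0.00, 0.04 and 0.17.

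The 11 T lymphocyte markers, cells in which Tcf7 is abundant, summed to 19.8 and 20.5 CPM in control and 24.5 and 16.5 CPM in knockdown, which overlap. Of the 10 tested, 6 had a fold change above 0 and 4 below, with none of the 11 at 0 in all libraries. The highest were Lck at 3.6 to 7.97 CPM and Trbc1 at 3.25 to 4.91 CPM, while Cd3e was at 0.0958 to 0.425 CPM and Zap70 at 0 to 0.124 CPM. Of the same 10, 2 were higher and 1 lower without overlap, against 15.6 and 17.1% of all genes tested. Cd8a, the 1 marker of this list at an unadjusted p under 0.05, was higher in knockdown, at 1.36 and 1.68 against 4.31 and 3.31 CPM. Ptprc was the lower one, at 0.192 and 1.39 against 0 and 0.0745 CPM.

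The 10 cumulus and granulosa markers summed to 84.8 and 75.6 against 72.9 and 86.2 CPM, with Inha at 0 in all and Cyp19a1 (36.8 to 55.7 CPM) and Nr5a2 (22.1 to 28.6 CPM) the highest. The sum thus rested mainly on Cyp19a1 and Nr5a2, and whether their RNA came from such cells or from the embryo was not tested. Of the 8 tested, 5 had a fold change above 0 and 3 below, and the median was 0.08. Without overlap, 2 of the 8 were lower and 1 higher, against 17.1 and 15.6% of all genes tested. Has2 (2.65 and 2.58 against 0.932 and 0.458 CPM) and Foxl2 (0.891 and 1.1 against 0.228 and 0.0213 CPM) were lower in both knockdown libraries, and Fshr (0.609 and 0.361 against 0.798 and 1.24 CPM) was higher in both. Has2 was the 1 marker of this list at an unadjusted p under 0.05. The 11 oviduct, blood and stroma markers summed to 67.7 and 78.2 against 74.2 and 35.4 CPM, with Hbb-bs and Col3a1 at 0 in all and Epcam (14.7 to 32.8 CPM) and Hba-a1 (10.4 to 27.1 CPM) the highest. Of the 8 tested, 3 had a fold change above 0 and 5 below, and the median was -0.64. Of these 8, 3 were lower and 1 higher without overlap, against 17.1 and 15.6% of all genes tested. Krt7, an epithelial keratin gene, was lower in both knockdown libraries, at 2.04 and 1.17 against 0.197 and 0.586 CPM. It was the 1 marker of its list at an unadjusted p under 0.05. Ovgp1 was higher in both, at 1.32 and 0.548 against 2.14 and 1.83 CPM. Whether embryo stage or such cells have a part in the level of Tcf7 was not tested.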

How the data were processed

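Poly(A) RNA of whole 2-cell embryos was counted per gene in 4 libraries, 2 per group. The authors deposited whole-number counts, by their values not normalized. Per the submitters' processing notes, the build was mm10 and the tools included HISAT2 2.1.0 and Picard 2.18.2, with Trim Galore 0.6.5 and CASAVA 1.8. The sources used here do not give the counter, annotation release, strand setting or treatment of duplicates. Of 53715 rows, 53620 matched GENCODE M21 by Ensembl ID without version, and 51464 with the same version.

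Counts were fitted with edgeR 4.0.16 in R 4.3.3 (filterByExpr with a minimum of 10 counts, TMM, quasi-likelihood test with group as the only term, Benjamini-Hochberg adjustment over 25565 genes, threshold 0.05). The SE was derived from the log2 fold change and the F statistic, and 95% intervals from the t distribution. Alternatives were DESeq2 1.42.0, limma-voom (limma 3.58.1), other scalings, no filter, a replicate block and leaving out each library. The fit was tested on simulated data. Since no label says that libraries came from separate collections, p-values cover the spread among these libraries alone, possibly a technical one. An exact 2 against 2 permutation test cannot go below 0.333. Counting error alone is covered by floors, since no molecular identifiers are named.

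The members, gene lists and tests were chosen with earlier results of these data known. Genes named are the members, the 3 highest of each list and any past an unadjusted p of 0.05, the 5 genes most like Tcf7 and the 3 most like Ctnnb1 in log2 CPM, the protein-coding neighbours of Tcf7 within 250 kb and the 2 highest markers of each list.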

Additional observations from a re-analysis of the deposited data

How the results depend on the processing

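The count of genes called over all genes was 0 with edgeR under both other scalings, without the filter, with limma-voom and with the replicate number as a replicate block, and 53 with DESeq2. Leaving out 1 library gave 0 to 3 genes. Other Wnt pathway genes past an unadjusted p of 0.05 numbered 2, against 1 without the low-count filter, 0 with the replicate block and 0 to 24 when 1 library was left out. Both high counts came without a knockdown library, where 1 sample is assumed to vary like the other group. None passed an adjusted p in any of these settings. The labels do not say that replicate numbers mark a shared day or litter, and same-numbered libraries did not deviate together (correlation -0.0141 across 25565 genes). The log2 fold change of Tcf7 ran from -1.16 to -1.01 over the 10 alternatives. Among the others, Tcf7l2 and Gsk3b kept their sign in all 10, while Tcf7l1, Lef1, Ctnnb1, Apc, Axin1, Axin2 and Lrp6 changed sign in at least 1. With the longest protein-coding transcript as length, an alternative chosen after seeing the data, 8 of the 10 members kept their place in the order of levels. Low counts limit Tcf7l1 and most Wnt ligands.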

Other observations

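The 3 genes whose levels followed Ctnnb1 most closely over the libraries, Fyb2, Tcaim and Tardbp, shared its split between the knockdown replicates. Tardbp, which encodes the RNA-binding protein TDP-43, was at 157 and 151 CPM in control and 138 and 205 CPM in knockdown. Tcaim, a mitochondrial protein gene, was at 71 and 69.3 against 63.1 and 96.7 CPM. The distances to Ctnnb1 in centred log2 CPM were 0.026 to 0.031, against 0.2 for the gene nearest to Tcf7. Ulk4, which overlaps Ctnnb1 on the opposite strand, was at 6.85 and 6.71 CPM in control and 6 and 6.91 CPM in knockdown, so its knockdown libraries also enclosed the controls, by a smaller amount. Ctnnb1 over Ulk4 in CPM was 14.3 to 14.4 in the controls and in knockdown replicate 1, and 19 in knockdown replicate 2.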
